A study of Rattus norvegicus with 13 samples.

Results

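The 10 genes described here carry glucose into brain cells and through the core of glycolysis. They are the transporters Slc2a1 and Slc2a3, the kinases Hk1, Pfkm and Pfkp, the aldolase Aldoa, the kinase Pgk1, the enolase Eno2 and the lactate dehydrogenases Ldha and Ldhb. They were chosen by name from the 17366 rows of the expression table, and where a gene stood on several rows the row with the highest mean was taken. All 10 were found, and 9 of them were among the 11837 genes with enough signal to be tested.

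RNA was taken from the whole hypothalamus of 13 rats. In the high-fructose group 6 rats ate a diet with 55% fructose, and in the chow group 7 rats ate standard chow with 0.30% fructose, in both from postnatal day 25. Food was withdrawn on day 79. On day 80 the animals of the cohort were injected with glucose (2 g per kg, 31 rats) or saline (29 rats), and they were killed 1 h later. Rats were housed in pairs. Neither the injection nor the cage of the 13 sequenced rats is known here, so a recent glucose load cannot be told apart from other differences between rats.

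Glucose crosses the blood-brain barrier on GLUT1, the product of Slc2a1, which endothelial cells and astrocytes make, while neurons rely on GLUT3, the product of Slc2a3. Hexokinase traps the sugar, phosphofructokinase commits it to glycolysis, and aldolase, phosphoglycerate kinase and enolase carry it on towards pyruvate. Lactate dehydrogenase interconverts pyruvate and lactate: the LDHA subunit is commonly described as the more glial form and LDHB as the more neuronal one. Enolase has a neuronal form, Eno2, long used as a marker of neurons, beside the widespread Eno1, and Aldoc is an aldolase rich in astrocytes.

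The promoters of 8 of the 10 genes were held in RefSeq (build GRCr8, rat). The 150 bases before the start of 3 of them are shown, because they include the vascular and glial transporter and both lactate dehydrogenase forms, which the results below set side by side. Capitals mark ACGTG on either strand (CACGT on the other), a form of the core to which hypoxia-inducible factors bind. Matches may overlap, as they do in CACGTG.
Slc2a1, chr5:138002372-138002521, plus strand: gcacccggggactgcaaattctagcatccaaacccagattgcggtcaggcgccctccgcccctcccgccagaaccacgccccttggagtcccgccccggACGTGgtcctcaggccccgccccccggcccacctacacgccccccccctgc
Ldha, chr1:106507942-106508091, plus strand: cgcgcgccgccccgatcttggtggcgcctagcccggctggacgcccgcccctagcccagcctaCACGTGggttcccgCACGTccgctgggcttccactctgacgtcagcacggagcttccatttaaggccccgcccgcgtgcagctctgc
Ldhb, chr4:177177409-177177558, minus strand: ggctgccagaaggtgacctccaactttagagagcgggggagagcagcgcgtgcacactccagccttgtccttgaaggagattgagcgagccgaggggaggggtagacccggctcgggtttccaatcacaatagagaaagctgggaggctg

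The Ldha stretch held 3 matches to ACGTG, of which a pair overlap, the Slc2a1 stretch 1 and the Ldhb stretch 0. All counts and shares of matches here cover ACGTG alone, so 0 for Ldhb does not mean that the core is absent. The form GCGTG was neither marked nor counted, and all 3 printed stretches, that of Ldhb included, hold it on a strand. The counts therefore do not rank the 3 promoters for the core. Over the 300 bases from 250 before to 50 after the start, 6 of the 8 genes had a match in at least 1 of their promoter entries, and 19.3% of all 33469 rat promoter entries of that length had one. Hk1 and Aldoa have several entries (2 and 3), so that a share per gene and a share per entry differ; 6 of the 11 entries of these genes had a match.

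Expression was given in FPKM, a read measure scaled to transcript length and library size, so levels of different genes can be set side by side. Total FPKM per rat ranged from 556902 to 608058. The number of reads per library is unknown and precision rests on the spread between rats. All matched markers of neurons (16), astrocytes (11) and oligodendrocytes (10) were above the minimum for testing. Of all 11837 tested genes, 466 (3.94%) differed between the diets by limma at an adjusted p under 0.05, 1.66% of the tested genes being higher on fructose and 2.27% lower, and this count ranged from 83 to 859 when 1 rat was left out.

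Most of these genes were abundant. Aldoa led with 1474 FPKM on average over the 13 rats, followed by Ldhb with 798.1, Pgk1 with 541, Pfkm with 310, Ldha with 236, Pfkp with 157, Hk1 with 156 and Slc2a1 with 88.9 FPKM. Each of these stood above the next in all 13 rats, except that Pfkp and Hk1 changed places: Pfkp was higher in 7 of 13 rats, 4 on fructose and 3 on chow. That pair did not differ beyond the spread between rats.

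Slc2a3 and Eno2, which stand for neurons among these genes, were the exceptions, with 0.223 and 8.64 FPKM. Both are listed on 2 rows with a locus suffix, and neither row reached the level of an abundant brain gene: Slc2a3 averaged 0.223 and 0.184 FPKM on its rows and Eno2 8.64 and 2.92 FPKM. Of the 940 rows with such a suffix, 93.2% averaged under 0.5 FPKM, against 28.3% of the 16426 rows without one. Atn1 and Grcc10, which lie beside Eno2 and were picked after their values were seen, are also on 2 suffixed rows each and averaged between 0.145 and 0.394 FPKM.

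The low level of Slc2a3 and Eno2 goes against their place as the neuronal forms, because other neuronal genes were high in the same rats. Snap25 averaged 1191 FPKM and Uchl1 1621 FPKM. The values of Slc2a3 and Eno2 are therefore given below as those of their rows, and no statement about GLUT3 or neuronal enolase in these rats is drawn from them; why the rows are low was not tested.

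**Figure D1:**
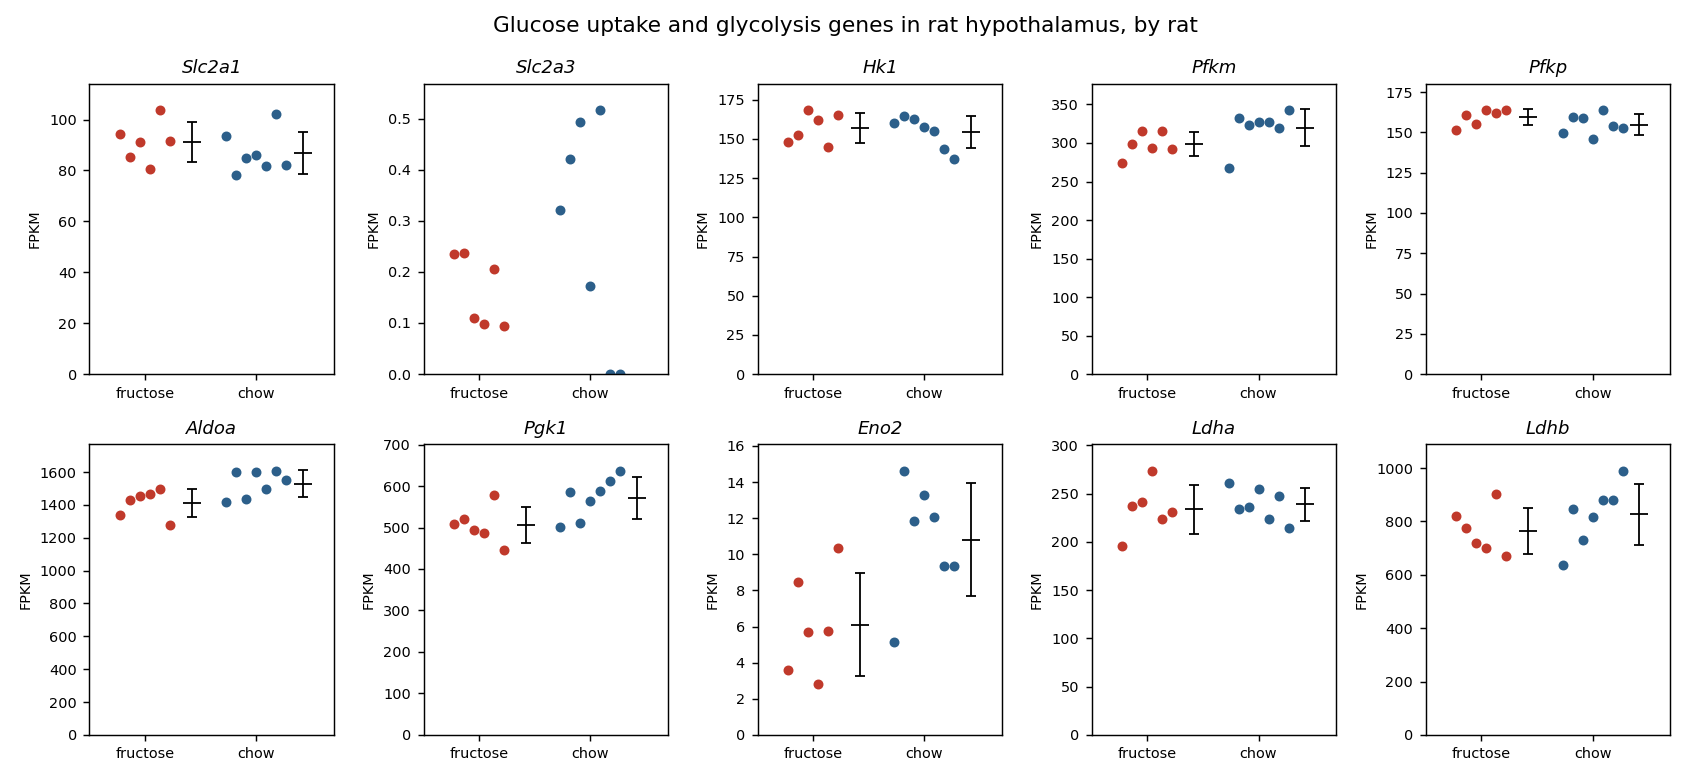
FPKM (vertical axes, from 0) of each gene in each rat, 6 fructose rats in red and 7 chow rats in blue, with the mean and SD of each diet in black (not drawn for Slc2a3, which is listed at 0 in 2 rats). The diets overlapped for every gene, and the Slc2a3 and Eno2 axes reach far lower levels than the others.

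The design asks which hypothalamic transcripts differ between rats on the fructose diet and rats on chow. None of the 10 glucose uptake and glycolysis genes passed the test: limma called 0 of the 9 tested genes, with 3 (Aldoa, Pgk1 and Eno2) at an unadjusted p under 0.05, all lower on fructose. The calls over all tested genes were 3.94%, and at the unadjusted level 10.6% were lower, 8.59% higher and 19.2% different in either direction. By the exact permutation test per gene the same 3 genes had an unadjusted p under 0.05. After adjustment that test gave 0 calls, for these genes and over all genes. Its smallest possible p over the 1716 splits is 0.000583, and genes at that floor had an adjusted p of 0.0663. No gene could pass it here, so its 0 calls do not set these genes apart from others. In 0 of the 10 genes did the diets stand fully apart, which 0.727% of all tested genes did with fructose lower and 0.879% with fructose higher.

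Of the 9 tested genes 6 had a negative log2 fold change, with a median of -0.10 over the 9, against a median of 0.00085 over all tested genes, of which 49.7% were negative. Abundant genes in general leaned the same way: of 2307 tested genes above 50 FPKM 61.8% were negative, with a median of -0.03.

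Slc2a1, the glucose transporter of the blood-brain barrier and of astrocytes, ranged from 80.6 to 104 FPKM on fructose with a median of 91.3, and from 78.1 to 102 FPKM on chow with a median of 85.0. The ranges lay nearly on top of each other. Slc2a1 averaged 91.1 ± 7.90 FPKM on fructose (SD, n = 6) and 87.0 ± 8.22 FPKM on chow (SD, n = 7), and the difference of 0.07 ± 0.07 on the log2 scale (SE) did not pass (limma adjusted p = 0.654). Markers of the vessel cells that make it did not pass either: of 15 tested endothelial and pericyte genes 0 were called by limma, with 4 at an unadjusted p under 0.05, all higher on fructose. Of the 15, 3 had a negative log2 fold change (median 0.10). At that unadjusted level 8.59% of all tested genes were higher.

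The Slc2a3 row ranged from 0.0947 to 0.236 FPKM on fructose with a median of 0.158, and from 0 to 0.517 FPKM on chow with a median of 0.321. It was listed at 0 in 2 chow rats. It fell under the minimum of 0.5 FPKM for the fit across genes, and its own exact two-sided permutation test gave p = 0.367 for a log2 difference of -0.18. Summed over its 2 rows it averaged 0.407 FPKM and still fell under that minimum.

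Hk1, the main hexokinase of brain, which phosphorylates glucose on entry, ranged from 145 to 168 FPKM on fructose with a median of 157.3, and from 137 to 164 FPKM on chow with a median of 157.4. The medians all but coincided. On the log2 scale the difference was 0.02 ± 0.05 (SE, limma adjusted p = 0.861). Hk2, the insulin-responsive hexokinase better known from muscle, stood far below Hk1. It averaged 2.48 ± 0.579 FPKM on fructose (SD, n = 6) and 1.96 ± 0.267 FPKM on chow (SD, n = 7), and its log2 fold change of 0.26 ± 0.13 (SE) did not pass (limma adjusted p = 0.310).

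Phosphofructokinase sets the pace of glycolysis, and its muscle-type subunit gene Pfkm was expressed above the platelet-type gene Pfkp in every rat. Pfkm ranged from 274 to 316 FPKM on fructose with a median of 297, and from 267 to 343 FPKM on chow with a median of 327. All 6 fructose rats lay under the chow mean, but chow replicate 1, at 267 FPKM, lay under them all. The log2 fold change of Pfkm was -0.10 ± 0.06 (SE, limma adjusted p = 0.372), and without chow replicate 1 it was -0.14 (adjusted p = 0.0597).

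Pfkp was the steadiest of the 10 genes, with a coefficient of variation of 3.85% over the 13 rats. It ranged from 151 to 164 FPKM on fructose with a median of 161, and from 146 to 164 FPKM on chow with a median of 154. Its log2 fold change was 0.04 ± 0.04 (SE, limma adjusted p = 0.606), so that the diets were not told apart.

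Aldoa, the aldolase that splits fructose bisphosphate, ranged from 1275 to 1494 FPKM on fructose with a median of 1442, and from 1419 to 1608 FPKM on chow with a median of 1554. Every fructose rat lay under the chow mean and 2 lay under every chow rat. Aldoa averaged 1410 ± 85.6 FPKM on fructose (SD, n = 6) and 1530 ± 80.7 FPKM on chow (SD, n = 7). The log2 fold change of -0.12 ± 0.05 (SE) had an unadjusted p of 0.0436 and did not pass after adjustment (limma adjusted p = 0.244; exact permutation p = 0.0256 before adjustment).

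Pgk1, phosphoglycerate kinase, makes the first ATP of the pathway. It ranged from 447 to 577 FPKM on fructose with a median of 502, and from 501 to 637 FPKM on chow with a median of 585. All 6 fructose rats lay under the chow median and 3 lay under every chow rat. Pgk1 averaged 506 ± 43.2 FPKM on fructose (SD, n = 6) and 571 ± 49.8 FPKM on chow (SD, n = 7), which puts the fructose mean at 88.6% of the chow mean. The log2 fold change was -0.17 ± 0.07 (SE), and it did not pass (unadjusted p = 0.0204, limma adjusted p = 0.167; exact permutation p = 0.0332 before adjustment).

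The higher Eno2 row ranged from 2.84 to 10.3 FPKM on fructose with a median of 5.71, and from 5.17 to 14.6 FPKM on chow with a median of 11.9. All 6 fructose rats lay under the chow mean, and 2 lay under every chow rat. Its difference of -0.83 ± 0.27 on the log2 scale (SE) was the largest in size among the 9 tested genes and did not pass (unadjusted p = 0.00752, limma adjusted p = 0.0986; exact permutation p = 0.0233 before adjustment). Without chow replicate 1 it passed, at -0.99 (adjusted p = 0.0259), the 1 call among these genes in the 13 fits that leave out a rat.

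Eno1, the widespread enolase, stood far above both Eno2 rows. It averaged 625 ± 34.7 FPKM on fructose (SD, n = 6) and 644 ± 41.5 FPKM on chow (SD, n = 7), and its difference of -0.04 ± 0.05 on the log2 scale (SE) did not pass (limma adjusted p = 0.729).

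Both lactate dehydrogenase genes were abundant and Ldhb stood above Ldha in every rat. Ldha ranged from 196 to 274 FPKM on fructose with a median of 233.8, and from 214 to 261 FPKM on chow with a median of 236. The fructose range took in the chow range. Its log2 fold change was -0.04 ± 0.07 (SE, limma adjusted p = 0.832).

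Ldhb ranged from 671 to 904 FPKM on fructose with a median of 747, and from 637 to 990 FPKM on chow with a median of 848. With a coefficient of variation of 12.96% it was the most variable of the 8 abundant genes, and chow rats held both its highest and its lowest value. Its log2 fold change was -0.11 ± 0.10 (SE, limma adjusted p = 0.604).

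**Figure D2:**
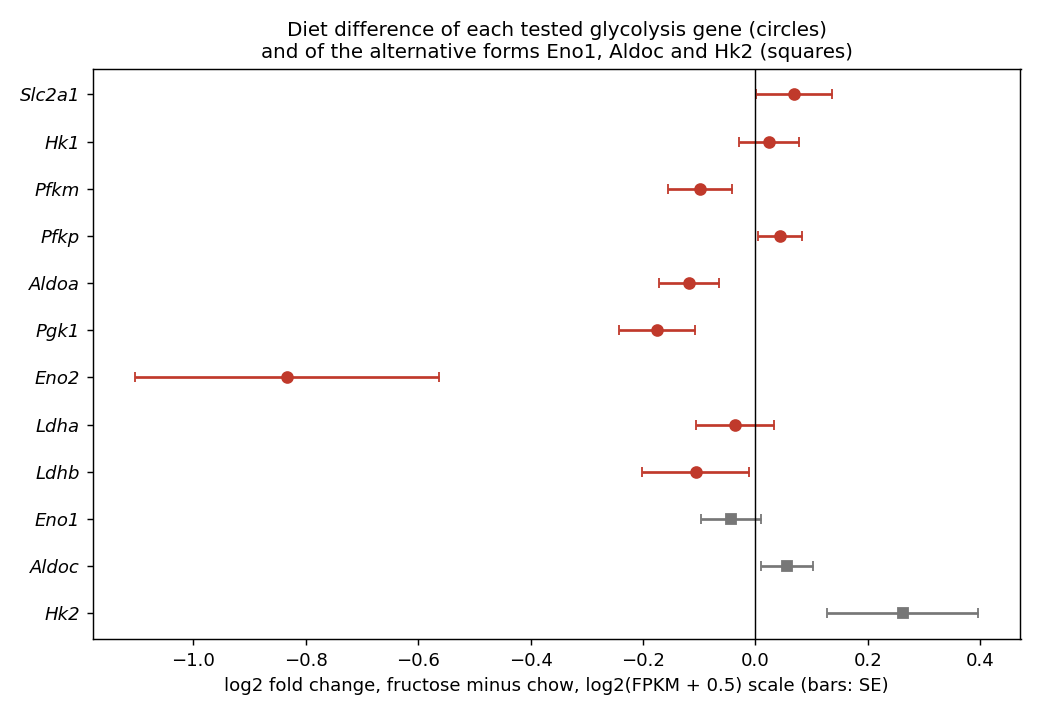
Log2 fold change (horizontal axis, fructose minus chow, bars of 1 SE from limma) of the 9 tested genes (circles) and of Eno1, Aldoc and Hk2 (squares). None passed at an adjusted p under 0.05; Eno2, at -0.83, lies farthest from 0 and has the widest bar.

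Forms of the same step were then compared within each rat, as the log2 ratio of their FPKM values with 0.5 added to each. A ratio within a rat shows unequal change of 2 genes, and not which of them changed. There were 6 such ratios, and p-values of the exact two-sided permutation test were adjusted over the 6. The pairs with Slc2a3 and Eno2 rest on the low rows described above and are given for completeness.

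Aldoa against Aldoc was the clearest. Aldoc, the aldolase rich in astrocytes, averaged 1446 ± 36.7 FPKM on fructose (SD, n = 6) and 1391 ± 69.9 FPKM on chow (SD, n = 7) and by itself did not pass (log2 fold change 0.06 ± 0.05 SE, limma adjusted p = 0.554). The log2 ratio of Aldoa over Aldoc ranged from -0.18 to 0.08 on fructose with a median of -0.03, and from 0.05 to 0.21 on chow with a median of 0.12. In 5 of 6 fructose rats the ratio was lower than in every chow rat. Aldoa was the more abundant aldolase in all 7 chow rats and also in fructose replicates 4 and 5 (log2 ratios 0.08 and 0.0047). The difference was -0.17 (exact permutation p = 0.00175, adjusted p = 0.0105), and it kept an adjusted p under 0.05, between 0.00758 and 0.0260, with each rat left out in turn. A limma fit of the ratios among all genes did not call it (adjusted p = 0.230).

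Pfkp over Pfkm ranged from -1.02 to -0.83 on fructose with a median of -0.87, and from -1.16 to -0.84 on chow with a median of -1.05. The mean was higher on fructose by 0.14 (exact permutation p = 0.0239, adjusted p = 0.0478), and all 6 fructose rats lay above the chow mean. The call was at the edge: it held in 2 of the 13 sets with 1 rat left out, those without chow replicate 1 or fructose replicate 3.

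Ldhb over Ldha, the ratio of the neuronal to the glial subunit gene, ranged from 1.35 to 2.07 on fructose with a median of 1.64, and from 1.29 to 2.21 on chow with a median of 1.83. The ranges overlapped almost wholly and the difference of -0.07 did not pass (exact permutation p = 0.663, adjusted p = 0.663). Hk1 over Hk2 ranged from 5.41 to 6.41 on fructose and from 5.79 to 6.11 on chow, with a difference of -0.24 (exact permutation p = 0.142, adjusted p = 0.213). Without fructose replicate 3, which had the lowest Hk2, that difference was -0.37 (adjusted p = 0.0227).

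The ratio of the higher Eno2 row over Eno1 ranged from -7.60 to -5.77 on fructose with a median of -6.71, and from -6.65 to -5.46 on chow with a median of -5.70. The difference of -0.79 passed at the edge (exact permutation p = 0.0221, adjusted p = 0.0478) and kept its call in 2 of the 13 sets with 1 rat left out, those without fructose replicate 6 or chow replicate 1. The ratio of the Slc2a3 row over Slc2a1 lay between -7.27 and -6.87 on fructose and between -7.68 and -6.34 on chow, a difference of -0.24 (exact permutation p = 0.289, adjusted p = 0.347).

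**Figure D3:**
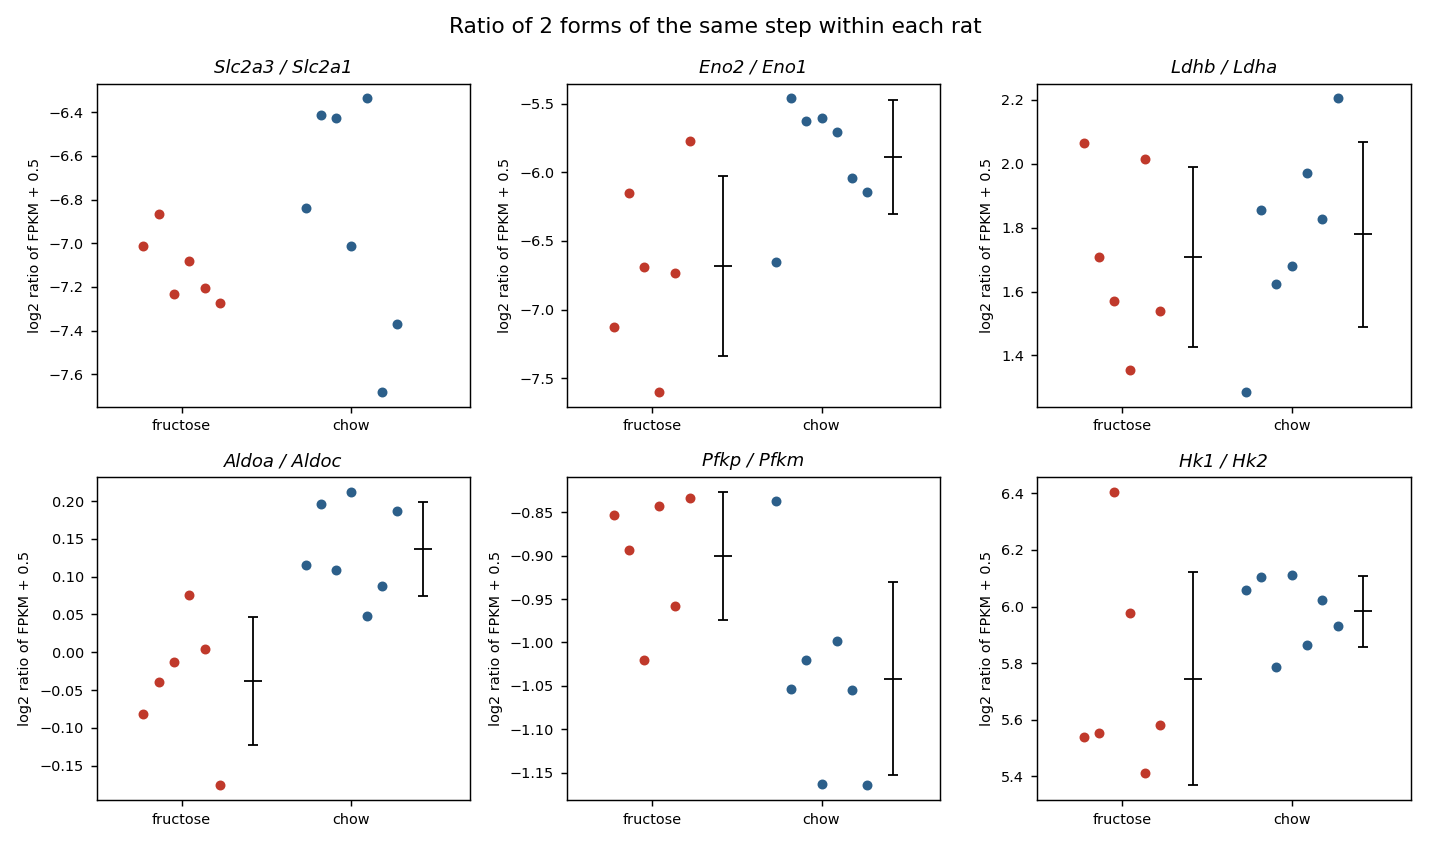
Log2 ratio of the FPKM (+ 0.5) of 2 forms of a step within each rat (vertical axes, each with its own range), 6 fructose rats in red and 7 chow rats in blue, with mean and SD in black (not drawn where Slc2a3 enters). For Aldoa over Aldoc 5 of 6 fructose rats lie under every chow rat, while for Ldhb over Ldha the diets overlap.

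Markers of brain cell types were read beside these values, and most did not pass (3.94% of all tested genes did). Of 16 tested neuron markers 15 had a negative log2 fold change (median -0.11) and 1, Thy1, fell (-0.38 ± 0.08 SE, limma adjusted p = 0.0310). Their summed level ranged from 5468 to 6321 FPKM on fructose and from 5864 to 7181 FPKM on chow. Of 11 tested astrocyte markers 1 had a negative log2 fold change (median 0.13) and 2 rose, Gfap (0.62 ± 0.14 SE, adjusted p = 0.0323) and Aqp4 (0.27 ± 0.06 SE, adjusted p = 0.0276), with a summed level of 3517 to 3834 FPKM on fructose and 3029 to 3460 FPKM on chow. All 3 calls were lost on leaving out fructose replicate 4 or 6, or chow replicate 2 or 4, those of Thy1 and Gfap also without chow replicate 5, and that of Thy1 also without chow replicate 7 or fructose replicate 2. With the thalamus gene level as a covariate the log2 fold changes were -0.17 for Thy1, 0.74 for Gfap and 0.26 for Aqp4, none called (adjusted p = 0.661, 0.193 and 0.340). With the blood cell gene level they were -0.59 for Thy1, still called (adjusted p = 0.0416), 0.30 for Gfap and 0.31 for Aqp4 (adjusted p = 0.570 and 0.151).

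Markers of other glia leaned the same way as those of astrocytes. Of 10 tested oligodendrocyte markers 0 had a negative log2 fold change (median 0.16), limma calling 0, and 1 was higher at an unadjusted p under 0.05. Of 11 tested microglia markers 2 were negative (median 0.13), with 0 called and 4 at an unadjusted p under 0.05, all higher on fructose. At that level 8.59% of all tested genes were higher. Their summed level ranged from 13153 to 19813 FPKM on fructose and from 11755 to 16695 FPKM on chow for oligodendrocytes, and from 269.6 to 320.2 FPKM on fructose and from 257.9 to 309.7 FPKM on chow for microglia. In bulk tissue fewer cells of a type and less RNA per cell cannot be told apart, and the part of these markers in the glycolysis values was not tested.

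Genes of neighbouring brain regions and of blood also differed between the diets. Fits with the level of the thalamus or blood cell genes as a covariate are given below. Beyond those fits the part of these genes in the values above was not tested. Over all tested genes limma called 2.27% lower and 1.66% higher on fructose. The lists here were chosen with earlier results of these data known, so their counts are a description and no test. Of 19 tested genes of the thalamus 10 fell and 1 rose. Their summed level was 680 to 1184 FPKM on fructose and 663 to 1486 FPKM on chow. Their median log2 fold change was -1.20, and 17 of the 19 were negative. The sum is weighted by Calb2, the gene that rose, which was the most abundant of them (mean 322 FPKM). Of 18 tested genes of midbrain dopamine neurons 17 rose, with a summed level of 283 to 734 FPKM on fructose and 122 to 166 FPKM on chow. Of 6 tested blood cell genes 5 rose, with a summed level of 516 to 2318 FPKM on fructose and 246 to 656 FPKM on chow. With the mean log2 level of the thalamus genes as a covariate, the log2 fold change was -0.71 for Eno2, -0.17 for Ldha, -0.06 for Aldoa, -0.05 for Pgk1, -0.0201 for Hk1, 0.0016 for Pfkm, 0.04 for Pfkp, 0.09 for Slc2a1 and 0.11 for Ldhb, with adjusted p between 0.637 and 0.998. Beside the main fit Aldoa, Pgk1 and Pfkm came nearer to 0, Eno2 changed little and Ldha lay farther from 0. With the blood cell level the log2 fold change was -0.90 for Eno2, -0.04 for Ldha, -0.19 for Aldoa and -0.28 for Pgk1. It was 0.07 for Hk1, -0.24 for Pfkm, 0.0067 for Pfkp, 0.04 for Slc2a1 and -0.28 for Ldhb. The limma adjusted p lay between 0.209 and 0.981. There Aldoa, Pgk1, Pfkm, Ldhb and Hk1 lay farther from 0, and Slc2a1 and Pfkp nearer. Genes of both lists themselves differed between the diets, so neither fit can decide the part of those genes.

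The genes also varied among themselves from rat to rat. Pgk1 and Ldhb rose and fell together over the 13 rats, with Pearson r = 0.903 (permutation p = 3.0e-05, adjusted p = 0.00135) and Spearman rho = 0.901 (permutation p = 9.0e-05, adjusted p = 0.00405). The r was 0.857 without the 2 rats farthest from the median of Pgk1, and it was 0.937 among the 6 fructose rats and 0.969 among the 7 chow rats. Each r for a pair is that of log2(FPKM + 0.5), and p-values for pairs are adjusted over the 45 pairs of the 10 genes. The values share the rats, the libraries and their scaling.

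Aldoa and Pgk1 also went together, with r = 0.823 (permutation p = 0.000500, adjusted p = 0.0112) and rho = 0.764 (permutation p = 0.00344, adjusted p = 0.0387). Within the diets r was 0.677 on fructose and 0.767 on chow, and it was 0.766 without the 2 rats farthest from the median of Aldoa. Pfkm went with both by rank: rho was 0.775 with Aldoa (permutation p = 0.00265) and 0.758 with Pgk1 (permutation p = 0.00340), each with an adjusted p of 0.0387, while r was 0.717 and 0.703 and did not pass (permutation p = 0.00545 and 0.00725, adjusted p = 0.0613 and 0.0651). For Pfkm with Aldoa r was 0.674 on fructose and 0.620 on chow, and 0.724 without the 2 rats farthest from the median of Pfkm. For Pfkm with Pgk1 r was 0.380 on fructose and 0.726 on chow, and 0.822 without those 2 rats. Hk1 and Ldhb ran opposite to each other, with r = -0.774 (permutation p = 0.00229, adjusted p = 0.0344) and rho = -0.742 (permutation p = 0.00483, adjusted p = 0.0435). Within the diets r was -0.926 on fructose and -0.690 on chow, and it was -0.6254 without the 2 rats farthest from the median of Hk1. These 5 pairs were all that passed by r or rho. For Ldha and Ldhb, shown because they are the 2 subunits of 1 enzyme, r was -0.531 (permutation p = 0.0612, adjusted p = 0.275) and rho was -0.582 (permutation p = 0.0385, adjusted p = 0.173), which did not pass.

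**Figure D4:**
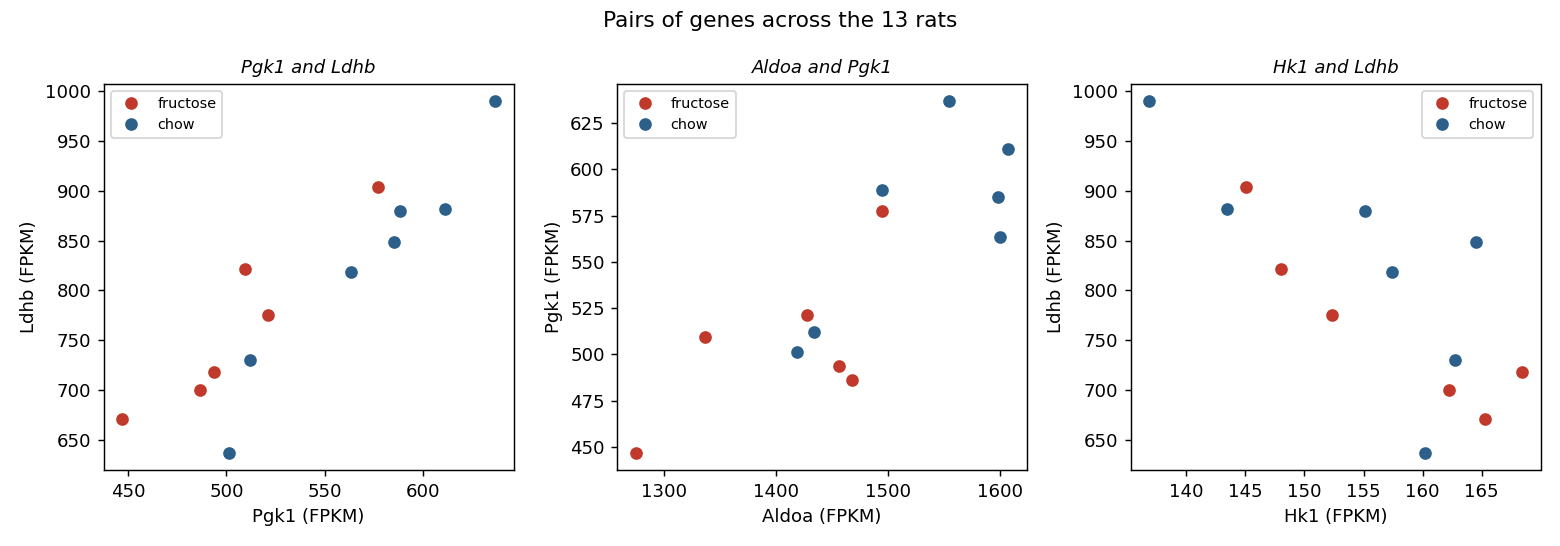
FPKM of Pgk1 against Ldhb, Aldoa against Pgk1 and Hk1 against Ldhb (both axes FPKM, not from 0), 1 point per rat, 6 fructose rats in red and 7 chow rats in blue. The first 2 pairs rise together (r = 0.903 and 0.823) and the third runs opposite (r = -0.774), in both diets.

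For 9 of the genes the tested gene outside the 10 with the most similar profile over the 13 rats was taken, by Pearson r of log2(FPKM + 0.5), as a description with no test. Pgk1 was most like Gas2 (r = 0.973), Ldhb most like Ccni (r = 0.966), Ldha most like Zcchc12 (r = 0.956), Aldoa most like Rogdi (r = 0.947), Pfkm most like Rabl6 (r = 0.941) and Hk1 most like Armcx2 (r = 0.924). The best r was lower for the Eno2 row (Dnajc11, 0.887), Slc2a1 (Pigw, 0.8295) and Pfkp (Vrk3, 0.827). Over 0.8 stood 377 genes for Pgk1, 240 for Pfkm, 201 for Ldhb and 194 for Aldoa, but 4 for Slc2a1 and 1 for Pfkp. So the profiles of the first 4 were shared by many transcripts and those of Slc2a1 and Pfkp by few.

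The rest of the pathway was read from lists of genes. Among all tested genes 3.94% were called, and 19.2% had an unadjusted p under 0.05. Of 14 tested glycolysis enzymes outside the 10, limma called 0, with 2 (Tpi1 and Pgam1) at an unadjusted p under 0.05, both lower on fructose; the median log2 fold change was -0.01. Gapdh, the most abundant of them, ranged from 2354 to 2672 FPKM on fructose and from 2330 to 2925 FPKM on chow (log2 fold change -0.08 ± 0.06 SE, limma adjusted p = 0.538). Of 7 other tested hexose transporters 0 were called and 0 had an unadjusted p under 0.05. The most abundant was Slc2a8, with -0.05 ± 0.05 (SE, adjusted p = 0.6246).

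Beyond glycolysis a few genes passed, to be read beside the 3.94% called among all tested genes. That share applies to each list below. Of 16 tested regulators of glycolysis and of pyruvate entry into mitochondria 1 fell: Pdp1, the phosphatase that switches pyruvate dehydrogenase on. At an unadjusted limma p under 0.05, 5 of the 16 were lower and 0 higher, against 10.6% and 8.59% of all tested genes. Of the 16, 13 had a negative log2 fold change (median -0.11). Pdp1 ranged from 28.5 to 71.7 FPKM on fructose with a median of 38.1, and from 44.2 to 114 FPKM on chow with a median of 76.6, and 3 fructose rats lay under every chow rat. Its log2 fold change was -0.96 ± 0.25 (SE, limma adjusted p = 0.0436). With the thalamus level as a covariate it was -0.12 (adjusted p = 0.889) and with the blood cell level -1.54 (adjusted p = 0.0653). It also did not pass with no filter on low values (adjusted p = 0.0591) or with robust fitting (adjusted p = 0.0566), and the call held in 3 of the 13 fits that leave out a rat, those without fructose replicate 1 or 5 or chow replicate 1. The most abundant gene of that list was Mpc1, a mitochondrial pyruvate carrier (-0.09 ± 0.08 SE, adjusted p = 0.595).

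Of 5 tested genes of lactate transport 1 rose. Slc16a3, the lactate transporter MCT4, known in brain from astrocytes, ranged from 1.40 to 1.92 FPKM on fructose with a median of 1.47, and from 0.566 to 1.27 FPKM on chow with a median of 0.795. Every rat on fructose exceeded all 7 on chow, as for 0.879% of all tested genes, though at low levels. This gave a difference of 0.58 ± 0.13 on the log2 scale (SE, limma adjusted p = 0.0324), and the call was lost on leaving out fructose replicate 2, 4 or 6, or chow replicate 2, 3 or 5 (adjusted p up to 0.0819). With the thalamus level as a covariate it was 0.72 (adjusted p = 0.177) and with the blood cell level 0.31 (adjusted p = 0.535), and with quantile normalization 0.49 (adjusted p = 0.0643). Bsg, the chaperone of these transporters and the most abundant of the list, did not pass (-0.05 ± 0.06 SE, adjusted p = 0.749).

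Of 14 tested genes of glycogen metabolism 2 fell. At an unadjusted limma p under 0.05, 3 of the 14 were lower and 1 higher. Pygl, the liver-type glycogen phosphorylase that frees glucose units from glycogen, ranged from 2.18 to 11.1 FPKM on fructose with a median of 5.43, and from 5.66 to 24.1 FPKM on chow with a median of 14.3. Gbe1, the branching enzyme of glycogen synthesis, ranged from 18.1 to 31.4 FPKM on fructose with a median of 23.1, and from 23.9 to 43.1 FPKM on chow with a median of 35.5. For both genes 3 fructose rats lay under every chow rat. The fold change on the log2 scale was -1.39 ± 0.35 for Pygl (SE, limma adjusted p = 0.0394) and -0.56 ± 0.15 for Gbe1 (SE, adjusted p = 0.0470).

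With the thalamus level as a covariate the log2 fold changes were -0.16 for Pygl and -0.07 for Gbe1 (adjusted p = 0.838 and 0.910). With the blood cell level they were -2.48 for Pygl, still called (adjusted p = 0.0291), and -0.89 for Gbe1 (adjusted p = 0.0771). With no filter on low values neither passed (adjusted p = 0.0548 for Pygl and 0.0621 for Gbe1), nor did Pygl with robust fitting (adjusted p = 0.0502) or Gbe1 with quantile normalization (adjusted p = 0.0536). When single rats were left out, Pygl kept its call in 4 of 13 fits (fructose replicate 1, 3 or 5, or chow replicate 1 absent) and Gbe1 in 3 (fructose replicate 1 or 5, or chow replicate 1 absent). Pygb, the brain form of glycogen phosphorylase and the most abundant of the list, did not pass (0.06 ± 0.05 SE, adjusted p = 0.601).

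Limma called 0 of 7 tested genes of the pentose phosphate pathway, 0 of 3 of gluconeogenesis, 0 of 7 of the malate-aspartate and glycerol phosphate shuttles and 0 of 14 of the hypoxia response. At an unadjusted p under 0.05 stood 1, 0, 1 and 3 of them, against 19.2% of all tested genes. The most abundant were Tkt, a transketolase (-0.09 ± 0.05 SE, adjusted p = 0.313), G6pc3, a glucose-6-phosphatase (0.02 ± 0.05 SE, adjusted p = 0.854), Mdh1, cytosolic malate dehydrogenase (-0.11 ± 0.07 SE, adjusted p = 0.419), and Bnip3, a target of hypoxia-inducible factors (-0.03 ± 0.07 SE, adjusted p = 0.845).

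**Figure D5:**
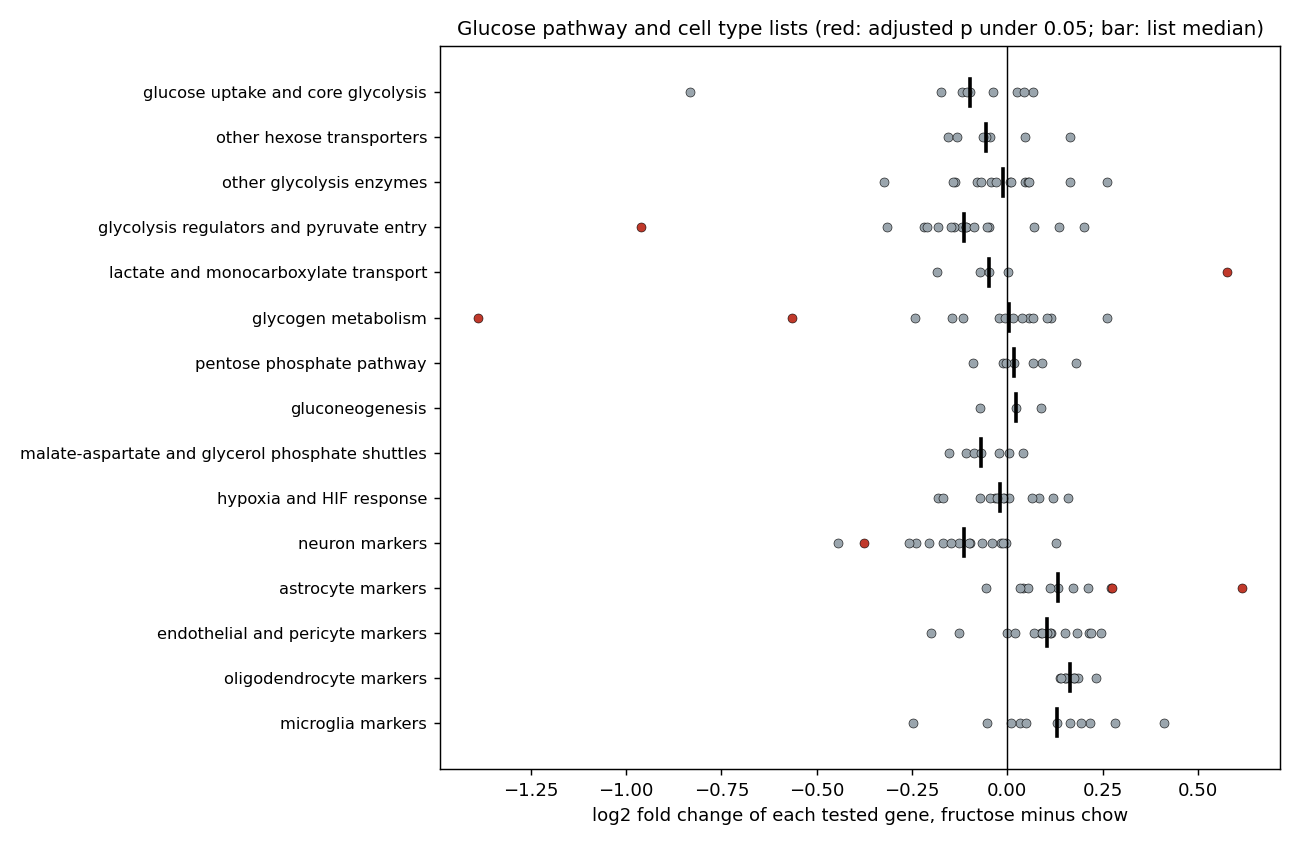
Log2 fold change (horizontal axis, fructose minus chow) of each tested gene of the 10 glucose uptake and glycolysis genes, of 9 further lists of the glucose pathway and of 5 lists of cell type markers, with the median of each list as a bar and genes at an adjusted p under 0.05 in red. The top row has no red point; red points are Pdp1, Slc16a3, Pygl, Gbe1, Thy1, Gfap and Aqp4.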

How the data were processed

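The table deposited by the authors holds FPKM, with a column for each rat. The submitters' processing notes name the aligner STAR (2.3.0e), Cufflinks (2.1.1), Cuffdiff and the build rn5. Their settings, annotation and scaling are not known here. Per the labels' protocols, library input was 1 µg of total RNA from whole hypothalamus. Groups come from the diet label. Replicates were numbered in accession order, so equal numbers do not pair rats, and nothing in the labels gives a batch.

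Genes averaging 0.5 FPKM or more were tested as log2(FPKM + 0.5) with limma (3.58.1, under R 4.3.3; empirical Bayes with a trend, two-sided, Benjamini-Hochberg over all 11837 genes, called at an adjusted p under 0.05). Fold changes on that scale understate the change of low genes. Ratios and single genes were tested by exact permutation over all 1716 splits into 6 and 7 rats, and correlations with 100000 resamples. Whole reads were not recovered: the most frequent ratio of low values between 2 rats covered at most 3.79% of rows. Of 228 list entries 216 were matched by symbol, synonym or joined row. Promoter sequences are from RefSeq (GRCr8). The members and lists were chosen with earlier results of these data known. Genes named are the 10, their second forms, the most similar gene of each (that of Slc2a3 is not reported here), and in each pathway list the called genes and otherwise the most abundant gene, which is named also beside called genes; others were named after their values were seen. The limma step was tested on simulated data for 11837 genes, where it recovered 71% of changes of 0.5 and 93% of changes of 1 on the log2 scale over 200 changed genes, and also called 18 unchanged genes. Alternatives were other pseudocounts, filters, scalings, robust fitting, permutation tests, covariates and leaving out each rat.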

Additional observations from a re-analysis of the deposited data

Results flagged for a closer look

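Of the 38 sets of values examined (each gene, second form and ratio within a diet), 1 held a rat that stood apart from its group by Dixon's criterion, and chance would give about 1 in 20. Pfkm in chow replicate 1 was 267.2 FPKM, and the next lowest chow rat was at 319.9 FPKM, a gap of 0.698 of the chow range. The same rat was the lowest chow rat for Aldoa, Pgk1, Ldhb and the Eno2 row, and the highest for Ldha.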

How the results depend on the processing

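Among the 10 genes the count of calls was 0 under every alternative run, other than without chow replicate 1, where the Eno2 row passed; with 1 rat left out the count ranged from 0 to 1. The count over all genes, 466, was 308 with no filter on low values, 0 by the exact permutation test per gene (2223 genes at an unadjusted p under 0.05), 30 with the thalamus level and 241 with the blood cell level as a covariate, and from 83 to 859 with 1 rat left out. Adding the midbrain dopamine neuron level gave 0. The summed level of those genes did not overlap between the diets (283 to 734 FPKM on fructose, 122 to 166 FPKM on chow). A fit with both therefore leaves little of the diet difference to estimate, and its 0 calls decide nothing. This alternative, and FPKM summed over the rows of Eno2 and Slc2a3 (0 calls among the 10), were chosen after seeing the data.

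The sign of uncalled log2 fold changes turned in some fits. With the thalamus level they were -0.0201 for Hk1, 0.0016 for Pfkm, 0.11 for Ldhb and 0.0249 for Eno1. With the midbrain dopamine neuron level they were -0.10 for Slc2a1, 0.0746 for Pfkm, 0.47 for Eno2, 0.18 for Ldha and 0.0853 for Eno1, none called (adjusted p between 0.8815 and 0.9538). Because that level follows the diet, that fit cannot decide these signs. With 1 rat left out Ldha ranged from -0.0833 to 0.0131 (positive without fructose replicate 1) and Hk1 from -0.0038 to 0.0466 (negative without chow replicate 7). The cause was not tested. The 7 calls named outside the 10 genes (Pdp1, Slc16a3, Pygl, Gbe1, Thy1, Gfap, Aqp4) did not pass by exact permutation per gene (adjusted p between 0.0663 and 0.138) or with the midbrain dopamine neuron level (adjusted p between 0.667 and 0.935). No tested gene passed under either alternative, 0.0663 being the smallest adjusted p of the exact test over all genes. So neither alternative sets the 7 calls apart from other genes.

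The limma fit with the ratios appended left the differences at -0.79 for Eno2 over Eno1, -0.17 for Aldoa over Aldoc and 0.14 for Pfkp over Pfkm, none of them called (adjusted p = 0.230, 0.230 and 0.441). By its construction it weighs a ratio's own spread with that of genes at the same mean: for Aldoa over Aldoc an SD of 0.0736 and a prior of 0.336 gave 0.185. With 1 rat left out the differences ranged from -0.97 to -0.61 for Eno2 over Eno1, from -0.20 to -0.15 for Aldoa over Aldoc, from 0.12 to 0.18 for Pfkp over Pfkm, from -0.37 to -0.17 for Hk1 over Hk2, from -0.15 to 0.00079 for Ldhb over Ldha (positive without fructose replicate 4 or chow replicate 7) and from -0.38 to -0.15 for Slc2a3 over Slc2a1. No paired analysis was possible because the labels give the diets no shared replicate numbers. Read depth is unknown, so no counting error can be given for low rows such as those of Slc2a3.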
